A study of Arabidopsis thaliana with 6 samples.

Results

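ABI1 (AT4G26080) and ERD10 (AT1G20450) are Arabidopsis thaliana genes at opposite ends of the abscisic acid (ABA) response, a phosphatase that holds the pathway back and a protective protein made when cells lose water. They were picked by symbol or title in tables of differing genes deposited by the authors, which name 541 loci, each through 1 probe set. The array as a whole carries 22810 probe sets. The series compared 3 arrays of plants overexpressing ANAC069 (OE, line OE-3) with 3 arrays of plants in which ANAC069 is knocked out by the insertion SALK_095231C (KO, line KO-2). ANAC069 encodes a NAC-domain transcription factor, and the series asked which genes it regulates. All plants were 4 weeks old and all had been given NaCl at 200 mM for 3 h, so no value below is a response to salt. Each genotype is a single line, no wild-type plants were analysed here, and the sources used here do not say which promoter drives the transgene. The label names whole plants with no organ.

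ABA is the hormone that builds up in plants under drought and salt. It binds receptors of the PYR/PYL family, and the bound receptor then captures and inhibits clade A protein phosphatases such as ABI1. These phosphatases otherwise keep SnRK2 kinases inactive, so their inhibition frees the kinases to phosphorylate transcription factors that switch on ABA-responsive genes. Several of the phosphatase genes are themselves induced by ABA, which is known as a negative feedback loop. Dehydrins such as ERD10 lie at the output end: they are hydrophilic, largely unfolded proteins that protect membranes and other proteins as water is lost, and ERD10 is known to be induced by dehydration, cold and ABA.

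Each value is a MAS5 signal, the summary of a set of short probes for 1 transcript on a linear scale in arbitrary units. Array medians were 158.8, 149.9 and 157.4 in OE replicates 1, 2 and 3, against 162, 182.2 and 186.1 in KO replicates 1, 2 and 3. Every OE median was thus below every KO median. Having only 3 arrays for each genotype limits how precise any value is. As a check of the labels, ANAC069 itself had signals of 2991, 2386 and 2360 in OE replicates 1, 2 and 3, against 386, 364 and 391 in KO replicates 1, 2 and 3. The lowest OE array was 6.03 times the highest KO array. The KO signals of ANAC069 were above the KO array medians, so the check shows a difference and not that the transcript was absent. In RNA from whole plants, more cells with a transcript and more transcript per cell cannot be told apart.

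ABI1 was read by the 1 probe set that has its name in the authors' deposited tables. A further probe set of the gene outside those tables would have no name here. The authors' deposited table aligns the probe set to chromosome 4 (start 13220230, end 13221828, minus strand), and the sources used here name no genome build. The values that follow are those of this probe set. The ABI1 signal was 1830, 2950 and 2972 in OE replicates 1, 2 and 3, against 1257, 1257 and 1077 in KO replicates 1, 2 and 3. Every OE array was above every KO array. OE replicate 1 lay well below the other 2 OE arrays, and was 1.46 times the highest KO array. The mean signal was 2584 ± 653 in OE and 1197 ± 104 in KO (SD, n = 3 each). The coefficient of variation was 25.3% over the OE arrays and 8.70% over the KO arrays. On the log2(signal + 16) scale the difference, OE minus KO, was 1.07 (SE 0.20), or 2.10-fold.

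ERD10 was also read by the 1 probe set with its name in the authors' deposited tables, with the same limit. It is placed there on chromosome 1 (start 7088234, end 7088579, minus strand). Its signal was 13692, 20486 and 19226 in OE replicates 1, 2 and 3, against 8854, 7281 and 7368 in KO replicates 1, 2 and 3. The groups did not overlap here either, and OE replicate 1 was again the lowest OE array, at 1.55 times the highest KO array. Every OE array lay above every KO array in 12.9% of all probe sets tested. The mean signal was 17801 ± 3614 in OE and 7834 ± 884 in KO (SD, n = 3 each). The coefficient of variation was 20.3% in OE and 11.3% in KO. The log2 difference, OE minus KO, was 1.17 (SE 0.18), or 2.25-fold. The gap between the log2 differences of the 2 genes was smaller than either SE.

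**Figure D1:**
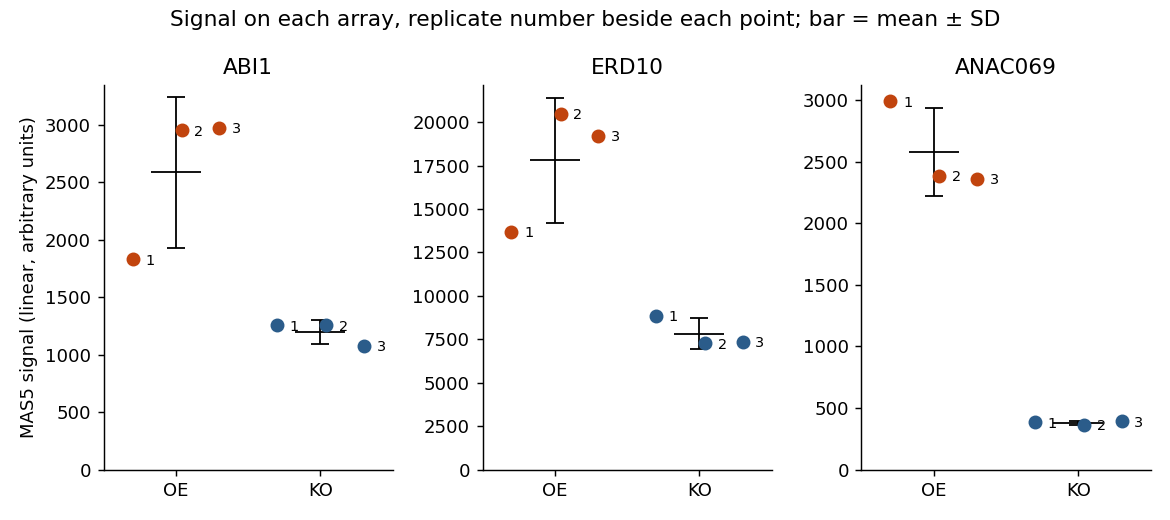
MAS5 signal (linear, arbitrary units, axis from 0) of ABI1, ERD10 and ANAC069 on each array, OE left and KO right, with replicate numbers beside the points and bars for mean ± SD (n = 3 each). OE replicate 1 was the lowest OE array for ABI1 (1830) and ERD10 (13692) and the highest for ANAC069 (2991).

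These differences are descriptions and no test is given in their support, because both genes carry a name here only through having been selected on the same OE and KO arrays. The deposited tables hold only probe sets with an unadjusted p below 0.05 and a difference of 2-fold or more, and list 1.5% of the 22746 probe sets outside the controls as up and 0.994% as down. In the authors' deposited table ABI1 is 2.11-fold up and ERD10 is 2.25-fold up, just inside that limit, and no named gene lies outside it for comparison. In fold, ERD10 ranked 266 and ABI1 ranked 308 of the 341 probe sets in the authors' up table. Over all 15922 probe sets tested in limma, 1.92% had a larger log2 difference than ERD10 and 2.33% a larger one than ABI1. The median log2 difference of all tested probe sets was -0.08.

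**Figure D2:**
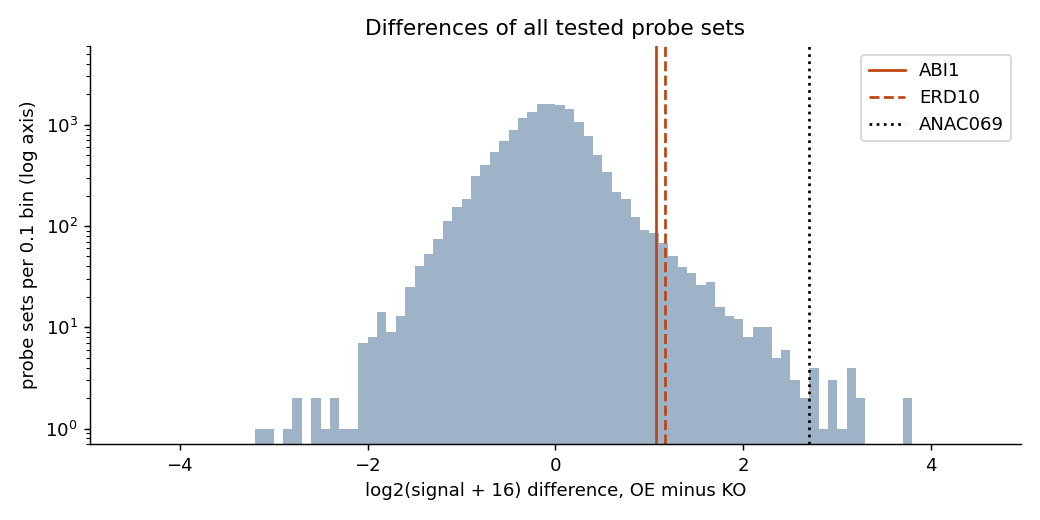
Number of tested probe sets (log axis) in bins of the log2(signal + 16) difference, OE minus KO, for all 15922 probe sets tested. The lines for ABI1 (1.07) and ERD10 (1.17) stand on the shoulder of the higher side, with ANAC069 (2.70) far out on the tail.

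How far the differences rest on single arrays was read by leaving each out in turn. Without OE replicate 2 or OE replicate 3, the ABI1 fold of geometric mean signals was 1.95 in each case, below the authors' limit of 2. Leaving out any other array kept it between 2.01 (without KO replicate 3) and 2.48 (without OE replicate 1). For ERD10 that fold stayed between 2.08 (without OE replicate 2) and 2.54 (without OE replicate 1). On the log2(signal + 16) scale, ABI1 was 0.96 without OE replicate 2 and 0.95 without OE replicate 3, its lowest values, and ERD10 was lowest, at 1.05, without OE replicate 2.

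Signs of RNA quality moved with the genotype. The mean log2 ratio of 3' to 5' signals over 6 pairs of control probe sets for actin, GAPDH and ubiquitin was 1.97, 1.94 and 1.73 in OE replicates 1, 2 and 3, against 1.80, 1.57 and 1.53 in KO replicates 1, 2 and 3. The groups overlapped in this mean, since KO replicate 1 was above OE replicate 3, but in 3 of the 6 ratios every OE array was above every KO array. With the mean ratio as a covariate the log2 difference was 1.20 for ABI1 and 1.14 for ERD10. In that fit neither gene had an adjusted p under 0.05 in limma.

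**Figure D3:**
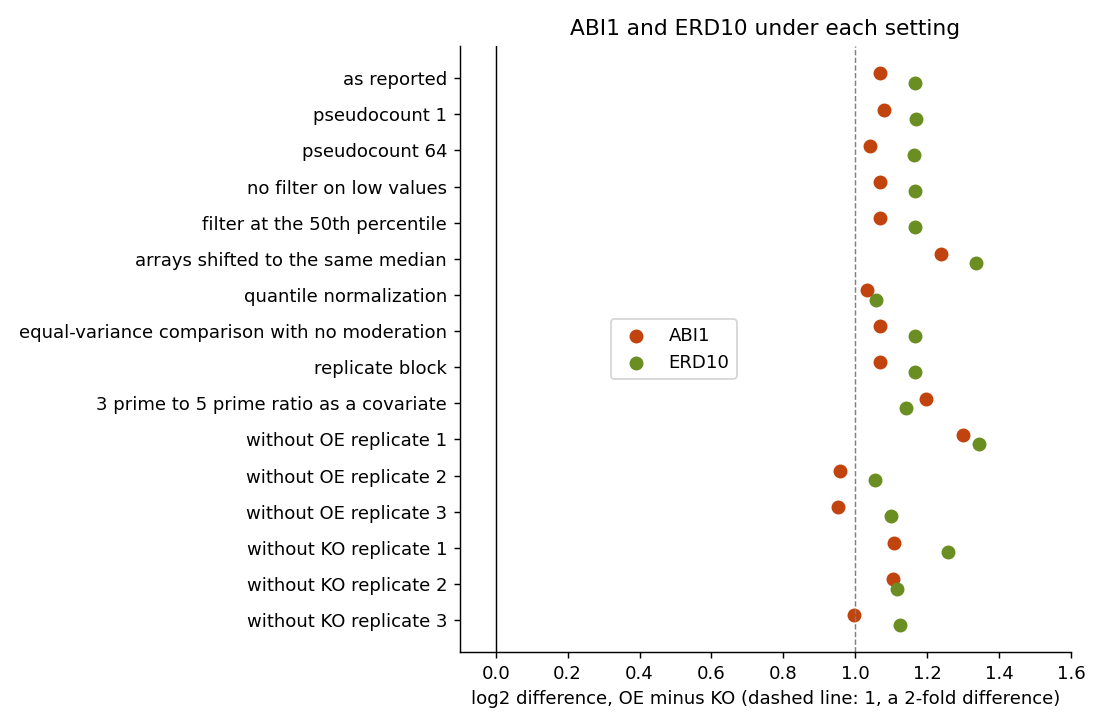
Log2 difference, OE minus KO, of ABI1 and ERD10 as reported and under each of 15 alternatives. ABI1 ranged from 0.95 to 1.30 and ERD10 from 1.05 to 1.35, all on the higher side in OE, a direction that most of the alternatives could not reverse.

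The low place of OE replicate 1 was common among the genes listed as up. It was the lowest OE array in 190 of 341 probe sets of the authors' up table (55.7%), against 33.0% of all tested probe sets. KO replicate 1, which had the highest KO signal for ERD10 (8854), was the highest KO array in 15.0% of the up table and in 34.1% of all tested probe sets. The up table was selected on these arrays, so these shares describe it and test nothing.

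The profiles of ABI1 and ERD10 over the 6 arrays were close to each other. Likeness was measured as the root mean square difference in log2(signal + 16) after each gene was centred on its own 6-array mean, so that 0 means the same profile. That distance was 0.12 between ABI1 and ERD10. Only 2 of the other 539 named genes lay closer to ABI1 than ERD10 did, and 3 lay closer to ERD10 than ABI1 did. Of the 15921 other tested probe sets, 3 lay closer to ABI1 and 3 lay closer to ERD10. The median distance of the tested probe sets was 0.66 from ABI1 and 0.69 from ERD10. The measure takes in the difference between genotypes on which both genes were selected, so the closeness is a description.

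The named genes nearest to ABI1, in order, were AT3G45730 (0.11), AT1G21520 (0.11), ERD10 (0.12), AT5G24210 (0.12) and AT2G27310 (0.12). AT3G45730 had signals of 190.8, 291 and 278 in OE replicates 1, 2 and 3, against 132, 134 and 92.1 in KO replicates 1, 2 and 3. As for ABI1, its lowest OE array was OE replicate 1 and its lowest KO array was KO replicate 3. The genes nearest to ERD10 were AT1G70740 (0.08), ZAR1 (0.10), AT1G21520 (0.11), ABI1 (0.12) and AT4G36550 (0.12). ZAR1 (AT3G50950) encodes an intracellular immune receptor of the NLR class, and AT1G21520 stood in both lists. AT1G70740 had signals of 279, 496 and 457 in OE replicates 1, 2 and 3, against 196, 149 and 149.8 in KO replicates 1, 2 and 3. It shared with ERD10 the order of all 6 arrays: OE replicate 2 was the highest, and KO replicate 2 the lowest.

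**Figure D4:**
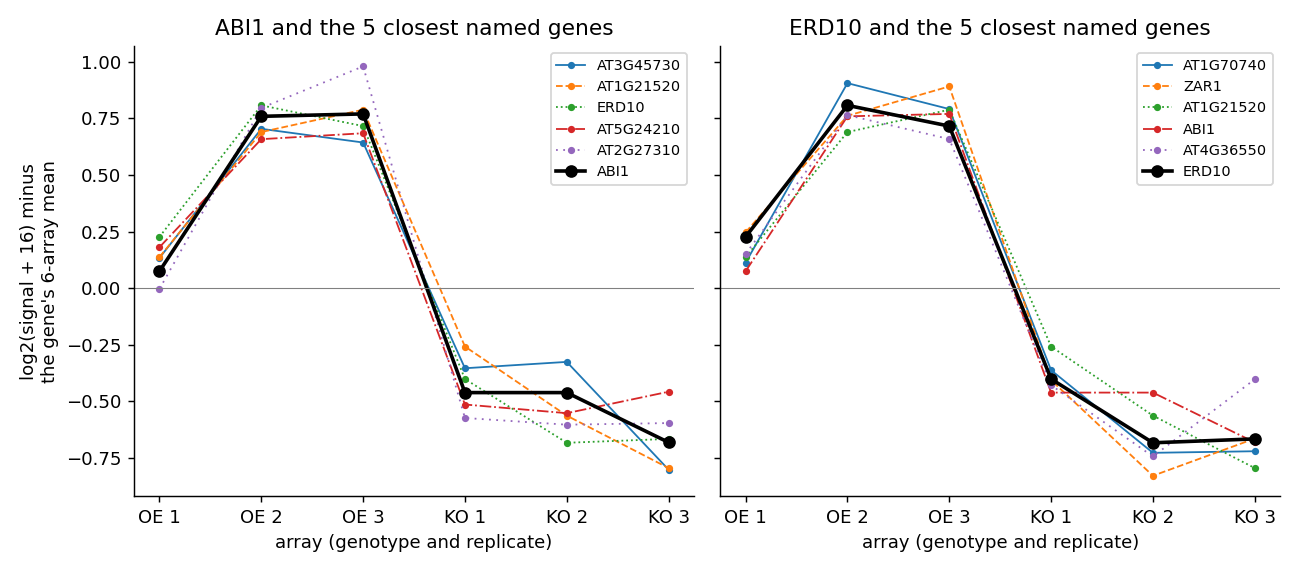
Log2(signal + 16) minus the gene's own 6-array mean, by array, for ABI1 (left) and ERD10 (right) in black with the 5 closest named genes in colour; lines only join the points of 1 gene. In each panel OE replicate 1 is the lowest OE array of every gene drawn, and root mean square distances run from 0.08 to 0.12.

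Around these 2 genes, 109 loci of ABA metabolism and signalling, dehydrins, stress markers and organ markers were listed by role. Only 14 of them, ABI1 and ERD10 included, have a name in the authors' deposited tables, and the other 95 were not analysed here. Of the 14, counting ABI1 and ERD10, 9 were called higher in OE and 2 lower at an adjusted p under 0.05 in limma, and 3 were not called. The calls of ABI1 and ERD10, both among the 9, rest on the contrast that selected them and are no test of either gene. ABI1 was called in 8 and ERD10 in 9 of the 15 alternatives. Among these, ABI1 was called in 2 and ERD10 in 3 of the 6 fits with an array left out. Among all probe sets tested 3.03% were called higher and 1.84% lower, and among the 540 named ones 49.6% and 21.9%. The median log2 difference was 1.34 over the 14, 1.07 over all named genes and -0.08 over all tested probe sets. Of the 14, 12 were in the authors' up table, whose tested probe sets had a median of 1.33. Since a name already meant selection on these arrays, the counts are no evidence of a shared direction. Without OE replicates 1, 2 and 3 and KO replicates 1, 2 and 3 in turn, 11, 1, 3, 9, 3 and 8 of the 14 were called higher and 1, 0, 0, 2, 0 and 0 lower, while 12 and 2 had an unadjusted p under 0.05 in each of these fits.

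Of the 9 clade A phosphatase genes, HAI2 was the other with a name. HAI2 (AT1G07430) belongs to the branch of these phosphatases known for strong induction by ABA. It had signals of 145, 348 and 305 in OE replicates 1, 2 and 3, against 111, 76.4 and 97.4 in KO replicates 1, 2 and 3. The genotypes did not overlap, OE replicate 1 being 1.31 times the highest KO array, and with a log2 difference of 1.27 (SE 0.31) the gene was not called. It was called higher after same-median scaling or quantile normalization of the arrays, and without OE replicate 1.

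None of the 14 PYR/PYL receptor genes, which act upstream of ABI1, has a name here. Of the 10 genes of the SnRK2 kinase family, which includes targets of these phosphatases, 2 have one, with differences of opposite sign and calls that many alternatives ended. SNRK2.8 had signals of 1044, 1220 and 896 in OE replicates 1, 2 and 3, against 481, 568 and 278 in KO replicates 1, 2 and 3, a log2 difference of 1.27 (SE 0.25), and was called higher. SNRK2.5 had signals of 78.8, 61.1 and 63.8 in OE replicates 1, 2 and 3, against 147, 138 and 154.5 in KO replicates 1, 2 and 3, a log2 difference of -0.96 (SE 0.20), and was called lower. Neither is among the 3 SnRK2 kinases best known for the core ABA response (SNRK2.2, SNRK2.3 and SNRK2.6), which have no name here. SNRK2.5 was called in 4 of the 14 alternatives that tested it, and among others not without OE replicate 2, OE replicate 3, KO replicate 2 or KO replicate 3, nor with the arrays rescaled either way. SNRK2.8 was called in 9 of 15, among others not when OE replicate 2, OE replicate 3 or KO replicate 2 was left out, or under the 3' to 5' ratio covariate. The 7 ABA transcription factor genes listed, such as the ABF genes and ABI5, have none either.

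The hormone's own metabolism was represented by 2 of 14 loci. NCED3 encodes the dioxygenase of the rate-limiting step of ABA synthesis under water stress. Its signals were 201, 609 and 456 in OE replicates 1, 2 and 3, against 123, 100.3 and 182 in KO replicates 1, 2 and 3. OE replicate 1 was barely above KO replicate 3, at 1.10 times its signal, and with a log2 difference of 1.44 (SE 0.38) NCED3 was not called. CYP707A2, an ABA hydroxylase that starts the hormone's breakdown, had 277, 260 and 523 in OE replicates 1, 2 and 3, against 118, 202 and 93.7 in KO replicates 1, 2 and 3. Its log2 difference was 1.25 (SE 0.33) and it was not called. Both genes were called higher after same-median scaling, and NCED3 also without OE replicate 1. ABA itself was not measured.

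**Figure D5:**
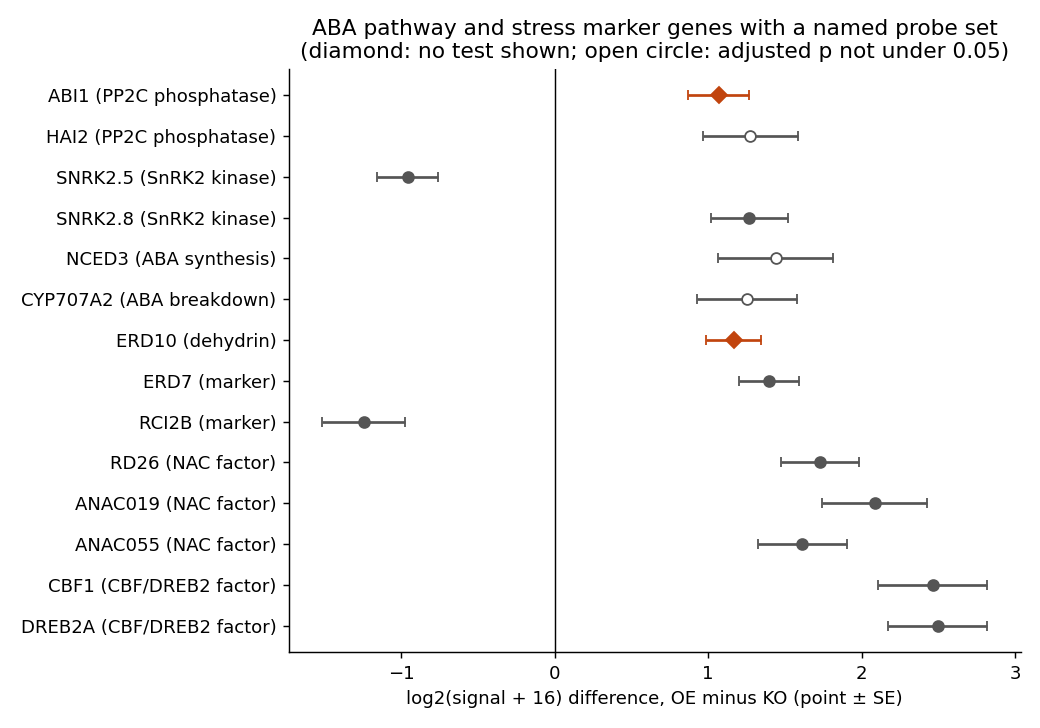
Log2(signal + 16) difference, OE minus KO, with SE, for the 14 listed genes that have a named probe set, by role, with diamonds in colour for ABI1 and ERD10, filled circles for other genes called and open circles for those not called at an adjusted p under 0.05 in limma. SNRK2.5 (-0.96) and RCI2B (-1.25) stand left of 0, and CBF1 (2.46) and DREB2A (2.50) lie farthest right.

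ERD10 was the only one of 10 dehydrin genes with a name. Of the 27 other salt, drought, cold and ABA markers, 5 have a name, 4 called higher and 1 lower. ERD7, another early gene of dehydration, had signals of 3812, 4639 and 5996 in OE replicates 1, 2 and 3, against 2124, 1525 and 1760 in KO replicates 1, 2 and 3. Its log2 difference was 1.40 (SE 0.19), and it was not called once OE replicate 2 was left out or the 3' to 5' ratio was a covariate. RCI2B, a small membrane protein gene induced by cold, went the other way, with 101, 79.3 and 135 in OE replicates 1, 2 and 3, against 184, 296 and 347 in KO replicates 1, 2 and 3. Its log2 difference was -1.25 (SE 0.27), and it was called lower. With the 3' to 5' ratio covariate it was -0.57 and not called. RCI2B was also not called with no filter on low values or with replicate number as a block. Of the 6 arrays only KO replicate 1 could be left out without ending the call. In all, RCI2B was called in 6 of the 15 alternatives.

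The 5 transcription factor genes of the lists with a name had larger differences than ABI1 and ERD10. So did every other listed gene that was higher in OE: HAI2, SNRK2.8, NCED3, CYP707A2 and ERD7. The NAC genes RD26, ANAC019 and ANAC055, known for induction by ABA and drought, had log2 differences of 1.73 (SE 0.25), 2.09 (SE 0.34) and 1.61 (SE 0.29). CBF1, a factor of cold responses, and DREB2A, a factor of drought and heat responses, had log2 differences of 2.46 (SE 0.35) and 2.50 (SE 0.32). Both belong to the family that binds the dehydration-responsive element, and all 5 genes were called higher. The 3 NAC genes were not called without OE replicate 2, OE replicate 3 or KO replicate 2, and DREB2A was not without OE replicate 2. RD26 (1.62) and ANAC055 (1.51) were not called with the 3' to 5' ratio covariate, while ANAC019, CBF1 and DREB2A were, at 3.01, 3.37 and 3.36. With replicate number as a block ANAC055 was not called. No difference between these genes and ABI1 or ERD10 was tested. None of the 13 loci listed as markers of seeds, flowers, roots and leaves has a name here, so the organs in the samples were not checked.

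The annotation in the deposited tables puts ABI1 and ERD10 together in the responses to abscisic acid and to cold. The response to abscisic acid held 15 named genes, 14 in the authors' up table and 1 in their down table. Limma called 12 of them higher and 1 lower, with ABI1 and ERD10 among the 12. The authors' up table held 322 (59.5%) of all 541 named genes and the other table held 219, with 49.6% called higher and 21.9% lower, the background for this and the next terms. The gene in the down table was HVA22C, with a log2 difference of -0.999 (SE 0.21), named here after its value was seen. The median log2 difference was 1.41 for this term and 1.07 for all named genes. It was 1.33 for the tested probe sets of the authors' up table, which held 14 of the 15 genes. The response to cold held 16 named genes, 14 up and 2 down in the authors' tables. Of these 13 were called higher, again with ABI1 and ERD10 among them, and 2 lower.

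ABI1 alone of the pair was annotated to ABA signalling, with LECRKA4.1, CPK32, MYC2 and MPK3 as the other named genes. CPK32 is a calcium-dependent kinase and MPK3 a mitogen-activated kinase, while MYC2 is a transcription factor of jasmonate and ABA responses. Their log2 differences were 1.41 (SE 0.23) for LECRKA4.1, 1.23 (SE 0.21) for CPK32, 1.22 (SE 0.22) for MYC2 and 1.06 (SE 0.12) for MPK3. ERD10 alone was annotated to the response to water deprivation, with 16 named genes, 12 up and 4 down in the authors' tables. Neither gene carried the term response to salt stress in these tables, where it had 14 named genes, 11 up and 3 down. The choice of these terms was made with the data already seen, the tables were selected on the same arrays, and annotation cells end at 255 characters, which 9 probe sets reached.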

How the data were processed

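Total RNA of 6 plant samples was labelled with biotin and hybridised to Affymetrix ATH1 arrays, per the labels. The deposited value table holds the authors' MAS5 intensity on a linear scale, named as MAS5 per the submitters' processing notes. Per the file headers, the deposited up and down tables hold a p-value and an absolute fold ratio for each listed probe set. As to direction, the deposited log2 fold, signed by table, equalled OE over KO of the value table to within 6.86e-06. A total of 48 per-array columns of these tables match no label and were not used. Names came from the tables' gene identifiers through NCBI RefSeq (TAIR10.1): 541 of 567 probe sets had 1 gene.

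OE minus KO was fitted with limma 3.58.1 (R 4.3.3; lmFit, eBayes with trend) on log2(signal + 16), which understates differences of dim probe sets, with group as the only term. The 64 control probe sets, and those at or below the 30th percentile of mean log2 value, were left out, leaving 15922. P-values were two-sided and adjusted by Benjamini-Hochberg, with a threshold of 0.05. The fit was run on simulated data with noise independent between arrays and probe sets, so shifts of whole arrays were not covered. That check set no minimum of calls for differences near the size of those of ABI1 and ERD10. The series calls the replicates biological. Named genes were ABI1, ERD10, ANAC069, every listed locus with a name, and the 5 nearest profiles of each gene. Members and lists were chosen with earlier results of these data known. A planned promoter motif search was not run, and sequences were not analysed here.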

Additional observations from a re-analysis of the deposited data

How the results depend on the processing

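ABI1 and ERD10 were higher in OE under all 15 alternatives, and no alternative moved either difference by more than the pooled SD within groups (0.30 and 0.25 on the log2 scale). The filters, the equal-variance comparison and the replicate block leave both differences unchanged by design. Neither another added constant nor an array left out can reverse them, since every OE array was above every KO array. The direction under these alternatives therefore says nothing further. With any array left out, ABI1 ranged from 0.95 to 1.30 and ERD10 from 1.05 to 1.35. Scaling the arrays to the same median moved the median log2 difference of all tested probe sets by more than 0.1, to 0.09 in place of -0.08, and gave 1.24 for ABI1 and 1.33 for ERD10.

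Counts of calls moved more. As reported, 483 probe sets were higher and 293 lower, and 9 and 2 of the 14 listed genes, with ABI1 and ERD10 among the 9. No filter on low values gave 261 higher and 76 lower, with 0 listed genes lower in limma (2 at an unadjusted p under 0.05). The filter at the 50th percentile left SNRK2.5 and HAI2 untested and so gave 1 listed gene lower; quantile normalization also gave 1. The same-median scaling gave 795 higher and 145 lower (12 listed genes higher and 1 lower). The equal-variance comparison gave 0 in each direction, also among listed genes, against 1419 higher and 1879 lower (12 and 2 listed) at an unadjusted p under 0.05. The 3' to 5' ratio covariate gave 189 higher and 19 lower, with 3 listed genes higher and 0 lower (12 and 1 unadjusted). With an array left out, 66 to 548 were higher and 7 to 852 lower, and among listed genes 1 to 11 and 0 to 2. Beyond genes or arrays left out, the causes of these shifts were not tested.

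With replicate number as a block, 238 were higher and 37 lower, with 6 listed genes higher and 0 lower in limma (12 and 2 unadjusted). The block left the log2 differences at 1.07 for ABI1 and 1.17 for ERD10, and neither gene was called. Same-numbered arrays did not deviate together (correlations of -0.24, -0.12 and 0.06 over probe sets for numbers 1, 2 and 3), so the numbers were not taken to pair samples. Signal over background could not be judged, since detection calls were not used here.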
